A study of Mus musculus with 12 samples.

Results

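ANT008, a peptide antagonist of the receptors for vasoactive intestinal peptide (VIP), was compared with a scrambled peptide in T cells taken from pancreatic tumors, each peptide given with an isotype IgG antibody and without anti-PD-1. The comparison takes 6 of the 12 mice of the series, 3 in the group ANT008+IgG and 3 in the group Scram+IgG, and all 748 endogenous genes of the expression panel, of which 640 were tested. It asks whether the antagonist on its own changed the RNA of the T cells in the tumor. The mice were female C57BL/6 animals of 8 to 10 weeks that carried subcutaneous tumors of KPC-Luc, a line of mouse pancreatic ductal adenocarcinoma that expresses luciferase. From 6 to 7 days after implantation they received 10 µg of ANT008 or of scrambled peptide under the skin daily, and 200 µg of IgG into the peritoneum every 3 days, for 10 days. Tumors were dissociated, cells bearing CD90.2 were pulled out with magnetic beads, and the purity of T cells after isolation is given as 80 to 85%. RNA of each mouse was hybridized in 1 lane of the nCounter Metabolic Pathways panel, an assay without amplification in which probes carrying color-coded tags bind RNA molecules and the tags are counted. Every tumor came from the same line and every mouse received a peptide and an antibody, so neither untreated mice nor T cells from outside the tumor enter the comparison.

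VIP is a neuropeptide that also acts on immune cells. It binds VPAC1 and VPAC2, receptors on T cells that raise cyclic AMP and thereby activate protein kinase A and the transcription factor CREB, and this signal is known to restrain T cell activation and to favor regulatory T cells. Activated T cells commonly take up more glucose and amino acids, make cytokines and divide. The genes for VIP and both receptors, and Creb1, were not analysed here, so no gene of the panel reads the drug target itself.

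The 6 lanes were unequal in depth. Endogenous counts summed to 1388586, 256703 and 1486646 in Scram+IgG mice 1 to 3 and to 1357305, 202511 and 100293 in ANT008+IgG mice 1 to 3. Background, the mean plus 2 SD of the 8 negative control probes of a lane, was between 11.7 and 28.2 counts, and it was not exceeded by 13.4% to 28.6% of the endogenous genes. Counts were divided by the size of the lane, the geometric mean of Dnajc14, Oaz1 and Ubb relative to all lanes, which was 6.15, 1.05 and 6.39 with Scram+IgG and 6.29, 0.581 and 0.501 with ANT008+IgG. A count at background therefore became a scaled count of 4.45, 15.5 and 3.81 with Scram+IgG and of 4.47, 30.4 and 23.4 with ANT008+IgG. The 3 housekeeping genes did not move together, since Oaz1 had its lowest scaled count of the 6 mice, 540, in ANT008+IgG mouse 2, where Dnajc14 had its highest, 700. A mark reading FLAG stood over the lane of mouse 1 in both groups, with no reason given. Depth differed between the groups, and its part in the results was not tested. The 9 T cell markers on the panel all passed the filter on low counts.

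No gene passed the test. Of the 640 genes, 0 were higher (0.0% of those tested) and 0 were lower (0.0%) with ANT008+IgG at an FDR below 0.1 in edgeR's quasi-likelihood test, and the smallest adjusted p was 0.999. At an unadjusted p below 0.05 there were 3 higher genes (0.469%) and 0 lower ones (0.0%). DESeq2 and limma on log2 scaled counts also called 0 genes, with 4 and 2 higher genes at an unadjusted p below 0.05. Limma's voom with sample weights called 37 higher (5.78%) and 7 lower (1.09%) genes. Of its 44 calls, 37 had the sign that edgeR gave and 7 the opposite one. Among the higher genes were Ly96 (voom log2 fold change 0.87), the regulatory T cell genes Foxp3 (1.38), Il2ra (1.39) and Ctla4 (2.05), the cytokine gene Ifng (2.49) and the fatty acid transporter gene Cd36 (2.29), all above 0 in edgeR too. The enzyme gene Asns, at 0.53 in edgeR, was among the lower ones at -1.64. Voom gave Scram+IgG mouse 1 a weight of 0.342, mouse 3 a weight of 4.70 and ANT008+IgG mouse 2 a weight of 0.290.

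Differences of moderate size could not be seen with this spread. The log2 fold change was above 0 for 427 genes (66.7%) and below 0 for 213 (33.3%), with a median of 0.11, and scaling by TMM moved that median to 0.02. In a fit of only the 6 lanes compared, scaled by their own housekeeping genes, the median was 0.0006. At the median gene, the 95% confidence interval reached 1.12 to either side of the fold change on the log2 scale, or 2.18-fold. The interval lay within 4-fold in both directions for 528 genes, 82.5% of those tested, and within 2-fold for 161, or 25.2%. For 628 genes (98.1%) the range from the lowest to the highest mouse of at least 1 group was wider than the log2 fold change. A range of single mice tends to exceed a difference between group averages unless the change is large. This share therefore does not tell whether the groups differed. The plot of all tested genes shows a cloud with few genes apart from it.

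**Figure D1:**
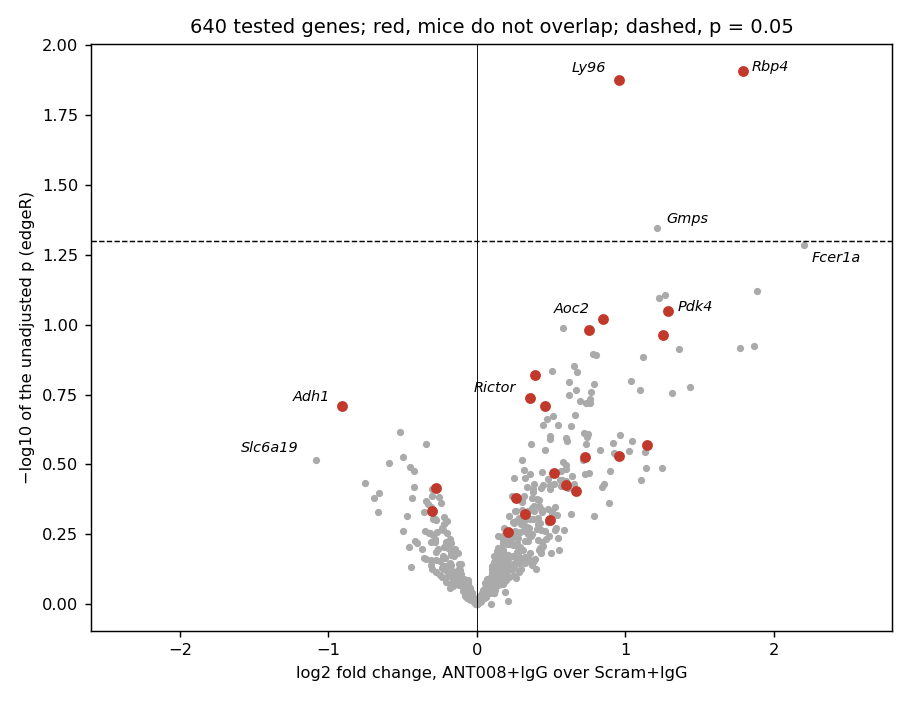
Each point is 1 of the 640 tested genes, placed by its log2 fold change of ANT008+IgG over Scram+IgG (x axis) and by minus log10 of the unadjusted edgeR p (y axis), with the 22 genes whose mice do not overlap in red. Rbp4, Ly96 and Gmps lie above the dashed line, the unadjusted threshold of 0.05, all on the side of higher counts with ANT008+IgG, and no gene lies above it on the other side.

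The 3 genes with an unadjusted p below 0.05 encode a retinol carrier, a part of the receptor for bacterial lipopolysaccharide and an enzyme of purine synthesis. The stretches of RNA that their probes were designed to bind are shown because these letters are what the instrument counted. The panel gives each target by transcript and first base, which is base 360 of NM_011255.3 for Rbp4, base 368 of NM_016923.1 for Ly96 and base 1620 of NM_001033300.2 for Gmps, and each target is 100 bases long.
Rbp4: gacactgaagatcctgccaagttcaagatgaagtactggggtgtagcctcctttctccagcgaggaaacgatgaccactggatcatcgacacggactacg
Ly96: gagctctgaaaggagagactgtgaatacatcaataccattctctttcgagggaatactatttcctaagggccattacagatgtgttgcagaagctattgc
Gmps: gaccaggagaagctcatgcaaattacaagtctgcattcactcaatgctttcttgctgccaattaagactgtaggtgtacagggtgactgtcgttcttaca

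Rbp4 encodes the protein that carries retinol in blood. Its scaled counts were 7.97, 7.62 and 13.5 in Scram+IgG mice 1 to 3 and 22.6, 51.6 and 29.9 in ANT008+IgG mice 1 to 3. Every ANT008+IgG mouse was above every Scram+IgG mouse, and the log2 fold change was 1.79 (SE 0.61, n = 3 mice a group, edgeR adjusted p = 0.999). The counts behind these values were low. They were 49, 8 and 86 against 142, 30 and 15 before scaling, Scram+IgG mouse 2 was below the background of its lane, and ANT008+IgG mice 2 and 3 were at 30 and 15 counts over backgrounds of 17.7 and 11.7. With the mean of the negative probes subtracted the log2 fold change was 1.97.

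Ly96 encodes MD-2, which binds lipopolysaccharide and presents it to the receptor TLR4. The scaled counts were 42.4, 34.3 and 39.9 with Scram+IgG and 78.0, 91.2 and 57.9 with ANT008+IgG. The groups did not overlap, all 6 lanes were above background, and the log2 fold change was 0.96 (SE 0.33, edgeR adjusted p = 0.999). Leaving out each mouse in turn kept it between 0.81 and 1.11. Tlr4 itself, its partner at the cell surface, had 83.9, 40.9 and 61.0 with Scram+IgG and 118, 55.1 and 81.8 with ANT008+IgG, so its groups overlapped, with a log2 fold change of 0.46 (SE 0.41, edgeR adjusted p = 0.999).

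Gmps encodes GMP synthetase, which makes the guanine nucleotide GMP. Its scaled counts were 79.7, 46.7 and 55.4 with Scram+IgG and 144, 55.1 and 226 with ANT008+IgG. ANT008+IgG mouse 2 lay among the control mice, and the log2 fold change was 1.21 (SE 0.54, edgeR adjusted p = 0.999). It was 0.73 without ANT008+IgG mouse 3.

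The genes next in order of p on the higher side had 1 or 2 mice that carried the difference. Fcer1a, the alpha chain of the IgE receptor of mast cells and basophils, had the highest log2 fold change of the tested genes, 2.20 (SE 1.02). Its scaled count was 461 in ANT008+IgG mouse 3 and between 19.0 and 64.8 in the other 5 mice, and without that mouse the log2 fold change was -0.39. Il6, an inflammatory cytokine, stood at 110 in ANT008+IgG mouse 2 and between 14.96 and 26.1 in the other mice, and its log2 fold change of 1.23 (SE 0.64) became -0.16 without it. Hdc, which makes histamine from histidine, was at 41.6, 60.0 and 18.9 with Scram+IgG and at 24.8, 163 and 104 with ANT008+IgG. Nat8l, which makes N-acetylaspartate, was higher in ANT008+IgG mice 2 and 3, at 13.8 and 22.0, than in the other 4, at 2.44 to 4.07, but both values were under the scaled background of their lanes.

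Pdk4 and Aoc2 differed from these in that their groups did not overlap. Pdk4 encodes a kinase that shuts off pyruvate dehydrogenase and so spares pyruvate from oxidation. It was at 5.85, 18.1 and 15.8 with Scram+IgG and at 24.3, 48.2 and 24.0 with ANT008+IgG. The log2 fold change was 1.29 (SE 0.70, edgeR adjusted p = 0.999). The 24.0 of ANT008+IgG mouse 3 and the 18.1 of Scram+IgG mouse 2 were near the scaled backgrounds of their lanes, 23.4 and 15.5. With the mean of the negative probes subtracted the log2 fold change of Pdk4 was 1.32. Aoc2, an amine oxidase, was at 23.3, 29.5 and 31.7 against 31.8, 70.6 and 51.9, with a log2 fold change of 0.85 (SE 0.47). Among all tested genes, 19 had every ANT008+IgG mouse above every Scram+IgG mouse (2.97%) and 3 had every one below (0.469%). For a single gene, the exact permutation test of 3 mice against 3 cannot give a two-sided p under 0.1, which is the value of each of these 22 genes.

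On the lower side the 10 genes with the smallest p had unadjusted p values of 0.196 or more. Adh1, an alcohol dehydrogenase that also oxidizes retinol, came first, with scaled counts of 4.39, 9.52 and 7.04 with Scram+IgG and 4.29, 3.44 and 2.00 with ANT008+IgG. All 3 ANT008+IgG values were below the scaled background of their lanes, and the log2 fold change was -0.91 (SE 0.67). S100a1, a calcium-binding protein, followed at 277, 860 and 713 against 304, 563 and 425, with a log2 fold change of -0.52 (SE 0.42). Slc6a19, a transporter of neutral amino acids, had the lowest log2 fold change, -1.08 (SE 1.01), from counts near background. The others were Psmd13, Flt1, Eomes, Slc27a1, Hsd11b1, Ndufa11 and Eno3, with log2 fold changes between -0.76 and -0.34.

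**Figure D2:**
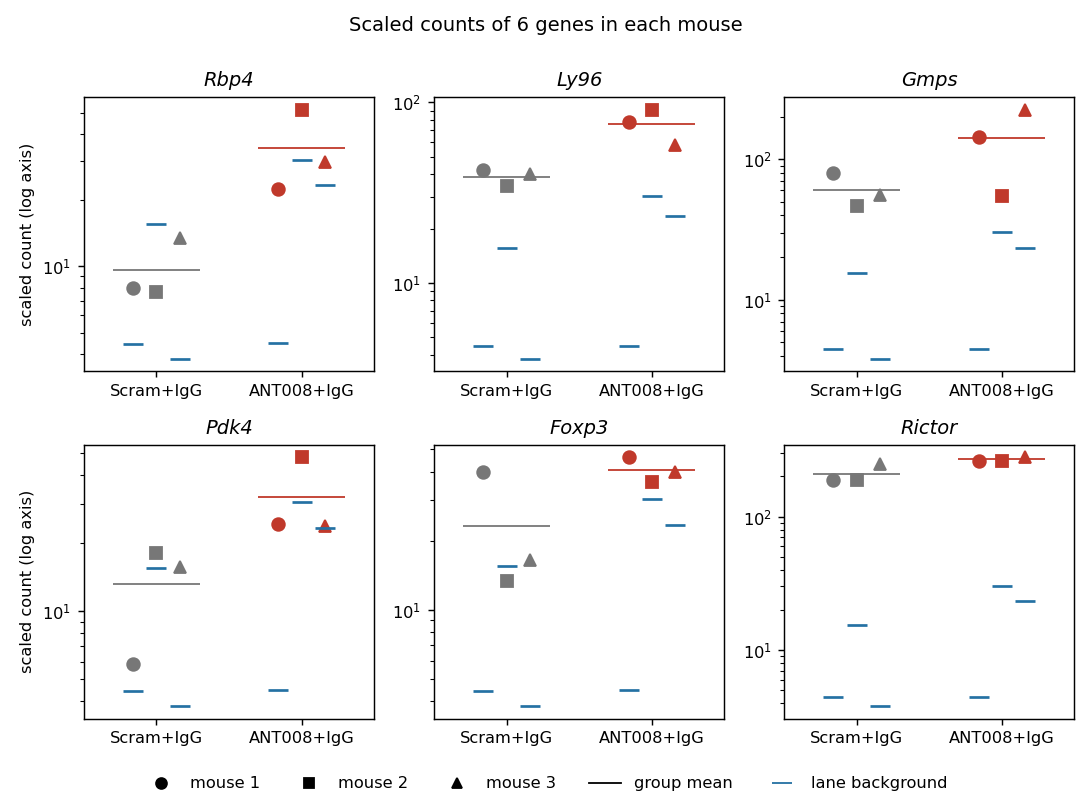
Points are scaled counts of 1 mouse on a log axis for Rbp4, Ly96, Gmps, Pdk4, Foxp3 and Rictor, horizontal lines are group means, and blue ticks are the scaled background of each lane. The groups do not overlap for Rbp4, Ly96, Pdk4 and Rictor. For Rbp4, Pdk4 and Foxp3 some points lie close to or under the background of their lane.

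Genes of the T cell receptor and of the signal behind it gave no uniform direction. The log2 fold change was above 0 for 6 of the 14 tested members, against 66.7% of all tested genes, and the median was -0.04 against 0.11. None had an unadjusted p below 0.05 in edgeR, and voom called Cd3g higher, which edgeR put at -0.08. Leaving out each mouse in turn moved the median from -0.39 to 1.16. Cd3e, a chain of the CD3 complex that passes on the receptor's signal, had scaled counts of 595, 56.2 and 56.6 with Scram+IgG and of 398, 74.0 and 120 with ANT008+IgG. Mouse 1 of each group was several times above the other mice, and the log2 fold change of -0.25 (SE 0.88) was far inside that spread. Cd8b1, a chain of the CD8 co-receptor, had the lowest value of the list, -0.34 (SE 0.82). Lat and Plcg1, an adaptor and the phospholipase it recruits, were at -0.32 (SE 0.52) and -0.26 (SE 0.30).

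Co-stimulatory receptors, the second signal for activation, were above 0 for 4 of 5 tested members with a median of 0.53, which was -0.42 without ANT008+IgG mouse 1, 0.06 without Scram+IgG mouse 3 and 1.54 without Scram+IgG mouse 1. Cd28 stood at 398, 142 and 152 with Scram+IgG and at 237, 521 and 267 with ANT008+IgG, a log2 fold change of 0.56 (SE 0.59). Icos, a relative of CD28, was at -0.06 (SE 0.72), Cd27 at 0.01 (SE 0.72), and Tnfrsf4, which encodes OX40, at 0.53 (SE 0.83). Cd40lg, the ligand through which helper T cells license antigen-presenting cells, had the highest value, 0.75 (SE 0.61), from 39.8, 10.5 and 12.2 against 38.9, 24.1 and 43.9. Its values of 10.5 and 24.1 were under the scaled backgrounds of their lanes. All 5 genes overlapped between the groups.

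Checkpoint receptors and their ligands, which dampen T cells, were above 0 for 5 of 7 members with a median of 0.21. Pdcd1, the gene for PD-1, had scaled counts of 696, 166 and 162 with Scram+IgG and of 459, 511 and 216 with ANT008+IgG. Its log2 fold change was 0.21 (SE 0.65), and its 95% interval ran from -1.20 to 1.62, which includes a doubling and a halving. Cd274, the gene for its ligand PD-L1, was at 0.42 (SE 0.50), Lag3 at -0.05 (SE 0.64) and Tigit at -0.04 (SE 0.79).

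The 4 regulatory T cell genes on the panel all had a log2 fold change above 0, against 66.7% of all tested genes. Their median was 0.58. None passed edgeR's test, and voom called Foxp3, Il2ra and Ctla4 higher. Foxp3, the transcription factor that defines these cells, was at 39.7, 13.3 and 16.4 with Scram+IgG and at 46.2, 36.1 and 39.9 with ANT008+IgG. Scram+IgG mouse 1 overlapped the ANT008+IgG mice while the other control mice lay below them, and the log2 fold change was 0.80 (SE 0.49, edgeR adjusted p = 0.999). The 13.3 of Scram+IgG mouse 2 was under the scaled background of its lane, 15.5. The 36.1 of ANT008+IgG mouse 2 was near the scaled background of its lane, 30.4. Il2ra, the high-affinity IL-2 receptor chain, was at 152, 42.8 and 42.5 against 127, 87.8 and 118, with a log2 fold change of 0.48 (SE 0.50). Ctla4, an inhibitory receptor abundant on these cells, was at 391.7, 52.4 and 64.6 against 304, 119 and 303, with 0.51 (SE 0.68). Il10, an inhibitory cytokine, was at 0.65 (SE 0.71) from scaled counts of 16.0 or less. In ANT008+IgG mice 2 and 3 Il10 was therefore under the scaled backgrounds of the lanes, 30.4 and 23.4. In RNA from pooled cells, a different number of cells of a type and a different amount of RNA per cell cannot be told apart.

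Effector cytokines and cytotoxic genes were above 0 for 7 of 12 members with a median of 0.20. Gzmb, the protease granzyme B that killer cells inject into their targets, was at 845, 49.5 and 119 with Scram+IgG and at 282, 87.8 and 269 with ANT008+IgG, a log2 fold change of -0.67 (SE 0.89). Ifng, the gene for interferon gamma, was at 148, 8.57 and 16.0 against 114, 20.7 and 97.8, with 0.42 (SE 0.88). Its values of 8.57 and 20.7 were under the scaled backgrounds of their lanes. Tnf was at 0.45 (SE 0.49), Il2 at 0.44 (SE 0.81) and Il4 at 0.37 (SE 1.04). In each of these genes the range of the control mice covered or overlapped the treated ones. Il2 and Il4 were not above background in all 6 lanes. Il2 was at -0.15 with background subtracted, and Il4 at -0.75 without ANT008+IgG mouse 2. Eomes, a transcription factor of cytotoxic cells, was at -0.59 (SE 0.56).

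Chemokines and chemokine receptors were above 0 for 3 of 5 members with a median of 0.07. Ccl5, which attracts T cells and monocytes and is made by cytotoxic cells, ran at 3596, 269 and 307 with Scram+IgG and at 1953, 372 and 711 with ANT008+IgG, a log2 fold change of -0.46 (SE 0.91). Ccl2, which attracts monocytes, was at 0.38 (SE 0.42), Ccl4 at 0.32 (SE 0.85), and Cxcr6, a receptor on tissue-resident T cells, at -0.19 (SE 0.72).

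Of the 37 genes listed for the cyclic AMP, protein kinase A and CREB pathway, 1 was on the panel, Ppargc1a, a coactivator whose gene is a classical CREB target. It had scaled counts of 10.6, 20.9 and 17.7 with Scram+IgG and of 14.6, 15.5 and 18.0 with ANT008+IgG. Its log2 fold change was -0.03 (SE 0.53). The values of ANT008+IgG mice 2 and 3 were under the scaled backgrounds of their lanes, 30.4 and 23.4. With the mean of the negative probes subtracted, the log2 fold change of Ppargc1a was -0.68. At counts this low, a value near 0 does not show that the gene was unchanged. Since the pathway itself was hardly measured, the promoters of the tested genes were searched for the full CREB-binding element TGACGTCA, which reads the same on both strands. A promoter was the window from 250 bases before to 50 bases after the start of a gene in RefSeq on GRCm38.p6, and 511 of the 640 tested genes had one. The element was in the window of 17 of them, or 3.33%, against 2.03% of the 27025 genes with a window. The 17 genes had a median log2 fold change of -0.04 against 0.11 for the 511. Of the 17, 8 were above 0, against 66.7% of all tested genes. At an unadjusted p below 0.05 there were 0 of the 17, against 0.469% higher and 0.0% lower of all tested genes. With so few passing, a count of 0 does not set these 17 genes apart. Windows of 28 bases are shown for 4 of them to show where a CREB target could be read on this panel, with the element in capitals and its strand after the coordinates. They belong to a kinase of T cell receptor signaling, the enzyme that makes lactate, a chain of MHC class II and a receptor of vascular growth factor.
Zap70, chr1:36761770-36761797, plus strand: tttgttgcttTGACGTCAacttcaaaca
Ldha, chr7:46845782-46845809, plus strand: gctcccactcTGACGTCAgcgcggagct
H2-Aa, chr17:34287880-34287907, minus strand: ctggcaacttTGACGTCAtcacaagaga
Flt1, chr5:147726075-147726102, minus strand: ggggacccctTGACGTCActggaaggag
The log2 fold changes of these genes were 0.05 (SE 0.64) for Zap70, -0.13 (SE 0.40) for Ldha, 0.52 (SE 0.56) for H2-Aa and -0.50 (SE 0.46) for Flt1. The letters in a window do not show that CREB binds there.

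Genes of the PI3K, AKT and mTOR pathway, which couples activation to growth, were above 0 for 10 of 17 tested members with a median of 0.02. Rictor, the scaffold of mTOR complex 2, was at 190, 189 and 247 with Scram+IgG and at 263, 262 and 279 with ANT008+IgG. The groups did not overlap and the ANT008+IgG mice lay close together, with a log2 fold change of 0.36 (SE 0.25, edgeR adjusted p = 0.999). Prkaa1, a catalytic subunit of the energy sensor AMPK, was at 0.47 (SE 0.36), Pik3ca at 0.34 (SE 0.37) and Mlst8, a subunit of both mTOR complexes, at -0.34 (SE 0.41).

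The genes of carbon metabolism, for which the panel was built, gave medians near that of all tested genes. Glycolysis and glucose uptake were above 0 for 13 of 17 members with a median of 0.14. Slc2a1, the glucose transporter GLUT1 that activated T cells raise, was at 109, 50.5 and 56.3 with Scram+IgG and at 140, 65.4 and 126 with ANT008+IgG, a log2 fold change of 0.62 (SE 0.43). Slc16a3, which exports lactate, was at 0.57 (SE 0.60) and Hk3, a hexokinase, at 0.54 (SE 0.75). The tricarboxylic acid cycle was above 0 for 5 of 11 members with a median of -0.01, from -0.30 (SE 0.35) for Pdha1, a subunit of pyruvate dehydrogenase, to 0.51 (SE 0.67) for the dehydrogenase gene Idh2.

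The respiratory chain and ATP synthase were above 0 for 13 of 23 members with a median of 0.02, and the ANT008+IgG mice lay far apart. The scaled counts of the 23 genes summed to 13278, 25374 and 20220 with Scram+IgG and to 11527, 36514 and 11059 with ANT008+IgG. ANT008+IgG mouse 2 was the highest of the 6 and the other ANT008+IgG mice were the lowest, and without mouse 2 the median of the list was -0.74. Ndufs8, a subunit of complex I, was at 134, 203 and 137 against 187, 212 and 311, with a log2 fold change of 0.58 (SE 0.33). Uqcrq of complex III was at 0.31 (SE 0.65), and Ndufa2 of complex I at -0.23 (SE 0.68).

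Fatty acid synthesis and oxidation were above 0 for 8 of 12 members with a median of 0.06. Cd36, a fatty acid transporter, was at 42.8, 8.57 and 11.4 with Scram+IgG and at 80.7, 20.7 and 33.9 with ANT008+IgG, a log2 fold change of 1.12 (SE 0.69, edgeR adjusted p = 0.999). Leaving out mouse 1 of ANT008+IgG gave 0.35, leaving out mouse 1 of Scram+IgG gave 2.19, and voom called it higher. The Cd36 values of mouse 2 in both groups were under the scaled backgrounds of their lanes, 15.5 with Scram+IgG and 30.4 with ANT008+IgG. Scd1, which desaturates fatty acids, was at -0.23 (SE 0.90). Amino acid transport and metabolism were above 0 for 17 of 23 members with a median of 0.32, and this list too turned on ANT008+IgG mouse 2, without which the median was -0.44. Slc7a5, the transporter of large neutral amino acids that activated T cells depend on, was at 277, 611 and 415 with Scram+IgG and at 183, 2241 and 273 with ANT008+IgG. Slc3a2, its partner chain, was at 1043 in the same mouse and between 388 and 480 in the other mice, and Phgdh, the first enzyme of serine synthesis, was at 1318 there and between 155 and 412 elsewhere.

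Cell cycle and DNA replication genes were above 0 for 8 of 13 members with a median of 0.04. Mki67, the proliferation marker Ki-67, was at 352, 169 and 211 with Scram+IgG and at 304, 99.8 and 353 with ANT008+IgG, a log2 fold change of 0.05 (SE 0.52). Cdc20, an activator of the anaphase-promoting complex, was at 0.75 (SE 0.76) and Ccnb2, a mitotic cyclin, at -0.30 (SE 0.42).

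MHC and antigen presentation genes were above 0 for all 9 tested members, against 66.7% of all tested genes, with a median of 0.38. At an unadjusted p below 0.05 there were 0 of the 9, against 0.469% higher and 0.0% lower of all tested genes. H2-Aa, a chain of the MHC class II molecule of antigen-presenting cells, was at 9089, 2245 and 4317 with Scram+IgG and at 11073, 5374 and 6028 with ANT008+IgG. H2-DMa, which loads peptides on class II, was at 516, 146 and 388 against 576, 355 and 403, with a log2 fold change of 0.35 (SE 0.46). H2-Ob was at 0.74 (SE 0.53), and H2-Q2, a class I gene of a family with closely related members, at 1.13 (SE 1.01). Neither H2-Ob nor H2-Q2 was above background in all 6 lanes. H2-Ob was at 0.39 with background subtracted, and H2-Q2 at 0.27 without ANT008+IgG mouse 2. For H2-Aa and H2-DMa, Scram+IgG mouse 2 was the lowest of the 6 mice.

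**Figure D3:**
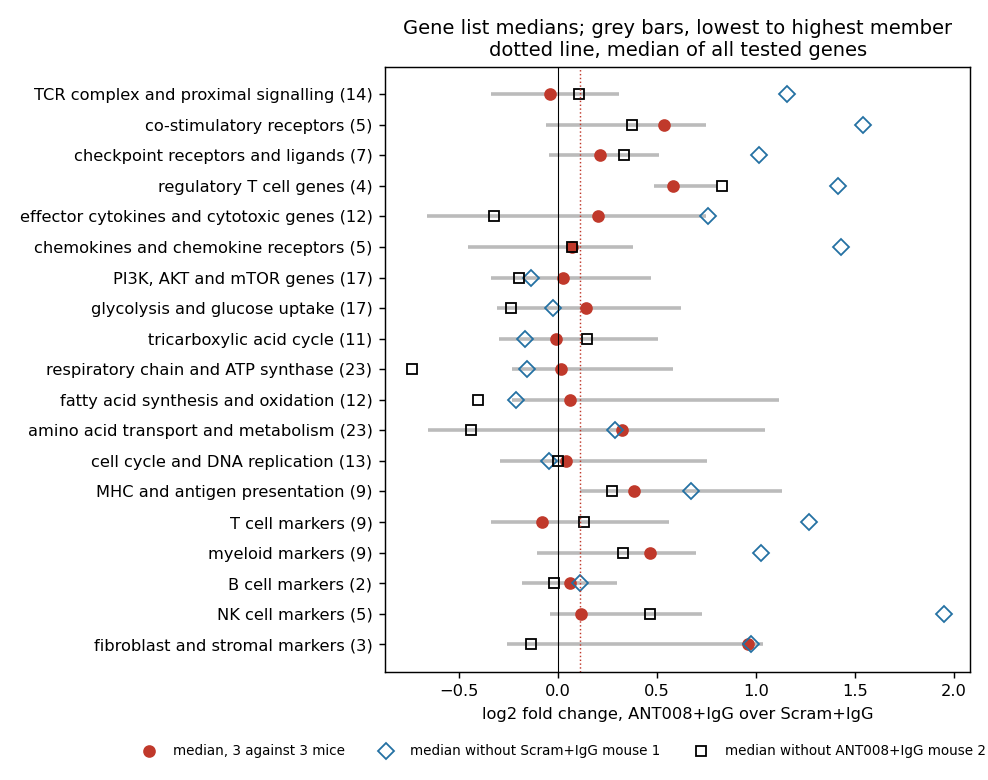
Red points are the median log2 fold change of ANT008+IgG over Scram+IgG (x axis) for each gene list with at least 2 tested members (number in brackets), grey bars run from the lowest to the highest member, open blue diamonds leave out Scram+IgG mouse 1 and open black squares leave out ANT008+IgG mouse 2. Without Scram+IgG mouse 1 the T cell lists lie to the right, at 1.16 for the T cell receptor list and 1.95 for NK cell markers, and without ANT008+IgG mouse 2 the respiratory chain list lies at -0.74.

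Markers of other cell types were measurable in these isolates and varied between mice. The 9 tested T cell markers summed to scaled counts of 4771, 823 and 808 with Scram+IgG and of 3156, 1671 and 1561 with ANT008+IgG, with 4 of 9 above 0 and a median log2 fold change of -0.08. The 9 tested myeloid markers, among them Cd14 and Itgam, summed to 2568, 610 and 1033 against 2581, 1910 and 1016, with 8 of 9 above 0 and a median of 0.46. The median came to -0.04 when ANT008+IgG mouse 1 was left out and to 1.03 when Scram+IgG mouse 1 was. Cd14, a lipopolysaccharide receptor of monocytes and macrophages, was at 221, 99.98 and 149 against 223, 370 and 170, with a log2 fold change of 0.70 (SE 0.50). The group mean of Cd14 was higher with ANT008+IgG, as it was for the MHC class II genes, Ly96 and Cd36, and the part of myeloid cells in those values was not tested.

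The 5 NK cell markers, which cytotoxic T cells can share, summed to 2594, 306 and 422 with Scram+IgG and to 2098, 552 and 1178 with ANT008+IgG, with 4 of 5 above 0 and a median of 0.11. Xcl1, a chemokine of NK and CD8 T cells, was at 0.73 (SE 0.74) and Ncr1, the NK receptor NKp46, at 0.27 (SE 0.52). Among B cell markers, Blk and Tnfrsf17 were too low to be tested, Tnfrsf17 was above background in 0 of the 6 lanes, and the tested Ms4a1 and Btk had a median of 0.06. The 3 fibroblast and stromal markers had a median of 0.96, set by Pdgfrb at 11.5, 8.57 and 13.3 against 25.6, 13.8 and 25.9, of which 8.57 and 13.8 were under the background of their lanes, and by Thbs1, which was at 380 in ANT008+IgG mouse 2 and between 53.3 and 107 elsewhere. Col6a3, a collagen, was at -0.26 (SE 0.53). Egfr, the single epithelial marker, was at -0.23 (SE 0.53), and Flt1, the single endothelial one, at -0.50 (SE 0.46).

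The mice of a group differed from each other along a few patterns. In principal components of the log2 scaled counts of the 6 mice, the first held 60.3% of the variance. It placed mouse 1 of both groups at one end, at 15.4 with Scram+IgG and 14.0 with ANT008+IgG, and mouse 2 of both groups at the other, at -14.2 and -15.1. The genes that led it toward mouse 1 were Cd3g, Klrk1, Ifng, Cd8a, Ccl4 and Ccl5, and those that led it toward mouse 2 were Pycr1, Col6a1, Scd1, Deptor and Hspa4. Both lanes at the mouse 1 end are those marked FLAG. That end was not high in T cell genes alone. The median myeloid marker was also above the mean of the 6 mice there, by 0.96 (log2) with Scram+IgG and 0.76 with ANT008+IgG.

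**Figure D4:**
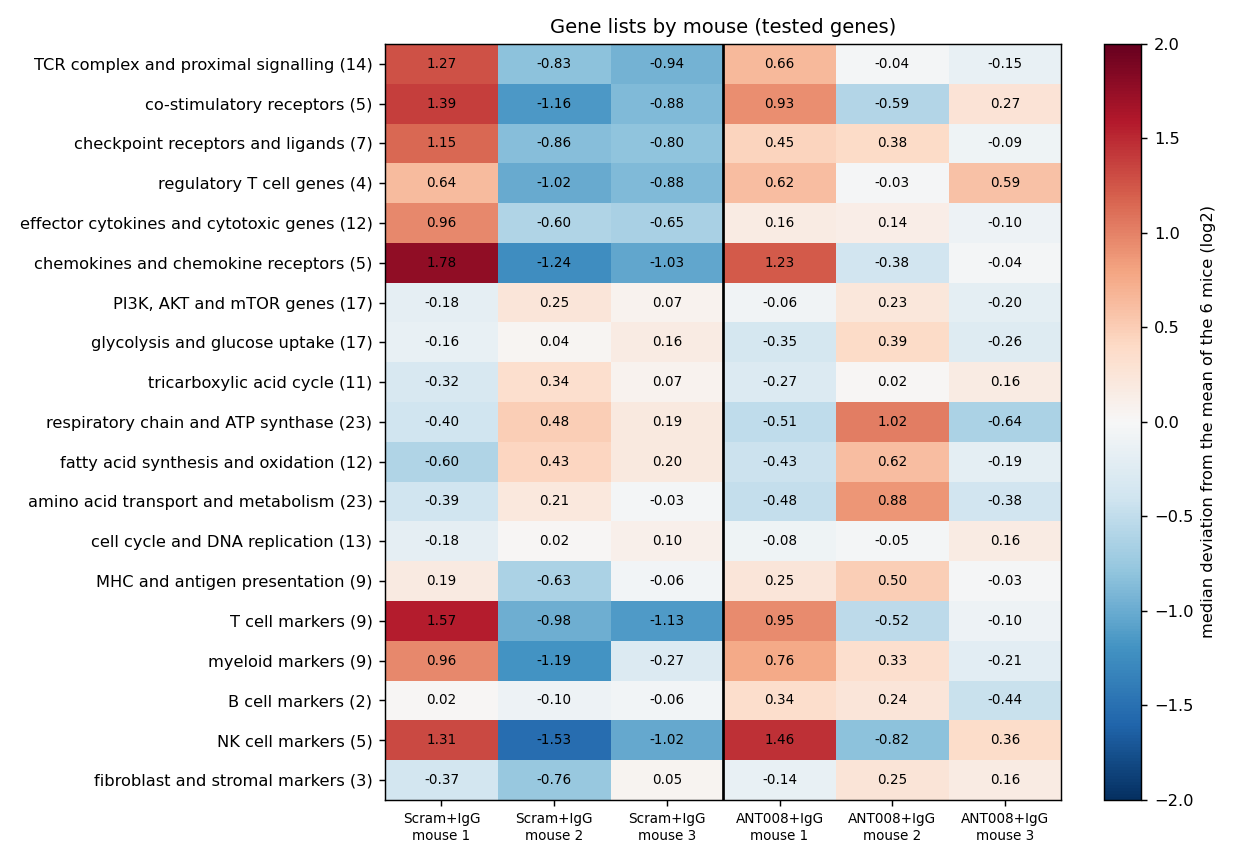
Each cell gives, for 1 gene list (row, with its number of tested genes) and 1 mouse (column), the median over genes of the log2 deviation from the mean of the 6 mice, in red where above and in blue where below. Mouse 1 of both groups is above the mean in the T cell, NK cell, chemokine and myeloid lists. ANT008+IgG mouse 2 is above it in the respiratory chain (1.02) and amino acid (0.88) lists.

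The difference for T cell genes turned on mouse 1 of each group. Without Scram+IgG mouse 1, 54 genes (8.44%) were higher and 1 lower (0.156%) at an unadjusted p below 0.05, in place of 3 and 0, although none passed an FDR of 0.1 and the smallest adjusted p was 0.449 in edgeR. The median of the T cell receptor list was then 1.16, that of the co-stimulatory receptors 1.54 and that of the regulatory T cell genes 1.41. Ctla4 was then at 2.05, Ifng at 2.62 and Cd3e at 1.83. Gzmb, at -0.67 with all mice, was then at 1.32. Without ANT008+IgG mouse 1 the values lay the other way, at -0.27 for the T cell receptor list, -0.42 for the co-stimulatory receptors, -0.70 for the T cell markers, -1.29 for Cd3e and -0.93 for Gzmb, while the regulatory T cell genes were at 0.51. With mouse 1 of both groups left out, a choice made after seeing the FLAG marks, the T cell receptor list was at 0.77 and the regulatory T cell genes at 1.30, with 0 genes at an FDR below 0.1.

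The second component, with 23.7% of the variance, separated ANT008+IgG mouse 2 at 11.2 from ANT008+IgG mouse 3 at -12.2, the 2 ends of that component. Arg1, Ms4a4a, Fcrlb, Cd68 and Apoe led it toward mouse 2, and Cpa3, Tpsb2, Tpsab1 and Fcer1a toward mouse 3, and these genes were picked out after their values were seen. Arg1, which encodes an enzyme that breaks down arginine, was at 2052, 537 and 847 with Scram+IgG and at 1371, 1750 and 277 with ANT008+IgG. Cpa3, a carboxypeptidase of mast cell granules, was at 126, 592 and 238 with Scram+IgG and at 217, 79.2 and 3181 with ANT008+IgG. The mast cell tryptase Tpsb2 was at 1816 in ANT008+IgG mouse 3 and between 77.4 and 463 in the other 5, and Tpsab1 at 253 against 12.0 to 58.1. The same mouse had the high Fcer1a value given above. Scram+IgG mouse 2 came second for Cpa3, Tpsb2 and Tpsab1. The log2 fold change of Cpa3 was 1.86 (SE 1.11, edgeR adjusted p = 0.999), which rested on 1 mouse.

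**Figure D5:**
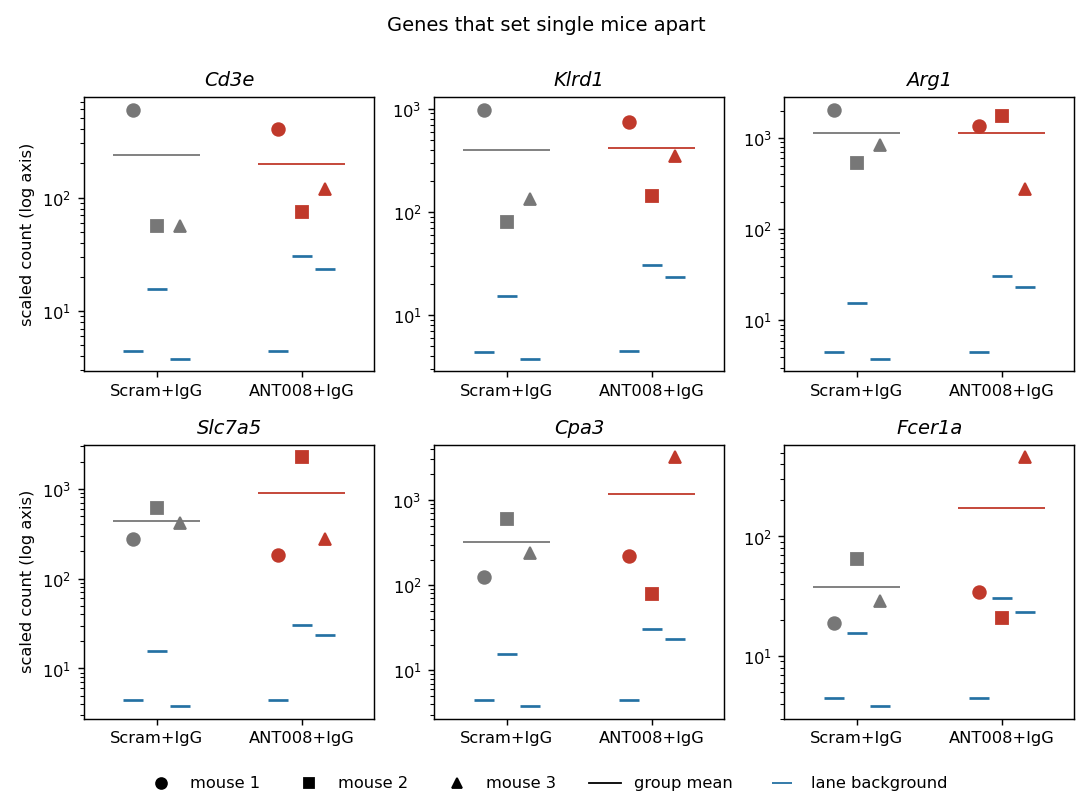
Points are scaled counts of 1 mouse on a log axis for Cd3e, Klrd1, Arg1, Slc7a5, Cpa3 and Fcer1a, with group means as lines and the scaled background of each lane as blue ticks. Cd3e and Klrd1 are highest in mouse 1 of both groups, Slc7a5 in ANT008+IgG mouse 2, and Cpa3 and Fcer1a in ANT008+IgG mouse 3.

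ANT008+IgG was also set against Scram+aPD-1, the mice that received scrambled peptide with 200 µg of anti-PD-1 in place of IgG, which asks where the 2 single agents differed. Here too 0 of the 640 genes were higher (0.0%) and 0 lower (0.0%) at an FDR below 0.1, with a smallest adjusted p of 0.999, and 4 genes were higher (0.625%) and 3 lower (0.469%) at an unadjusted p below 0.05 in edgeR. The same ANT008+IgG mice enter both comparisons, so a high value in them counts in each. Limma on log2 scaled counts and voom called 0 higher genes, and DESeq2 called 1 (0.156%), which was Rbp4. Of the log2 fold changes, which ran from -1.73 to 2.46 with a median of 0.00, 321 were above 0 (50.2%) and 319 below (49.8%). The mice did not overlap for 22 higher (3.44%) and 7 lower (1.09%) genes.

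Rbp4 was at 4.09, 4.55 and 16.4 in the Scram+aPD-1 mice, below the 22.6 to 51.6 of the ANT008+IgG mice, with a log2 fold change of 2.46 (SE 0.69, edgeR adjusted p = 0.999). The value of 16.4 was under the scaled background of its lane, 46.3. Ly96 was at 37.7, 36.7 and 32.8 with Scram+aPD-1, and the log2 fold change was 1.07 (SE 0.34). Pdk4 was at 6.41, 4.24 and 16.4, with 2.15 (SE 0.78), and Rictor at 181, 175 and 180, with 0.59 (SE 0.26). In Scram+aPD-1 mouse 3, Ly96 and Pdk4 were also under the background of the lane. For each of these 4 genes all ANT008+IgG mice were above all Scram+aPD-1 mice.

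The genes lower with ANT008+IgG than with Scram+aPD-1 at an unadjusted p below 0.05 were Nos2, Lat and Serinc5. Nos2, the inducible nitric oxide synthase of activated macrophages, was at 39.3, 25.8 and 39.9 with ANT008+IgG and at 123, 41.2 and 197 with Scram+aPD-1, a log2 fold change of -1.73 (SE 0.66). Lat was at 118, 179 and 114 against 306, 173 and 529, with -1.28 (SE 0.53), and the groups overlapped. Serinc5, a membrane protein that carries phospholipids between the leaflets of the membrane, was at 29.6, 27.5 and 18.0 against 43.4, 30.3 and 73.8, with -0.89 (SE 0.41). Neither Nos2 nor Serinc5 overlapped between these groups. In ANT008+IgG mouse 2 both were under the scaled background of the lane, 30.4. In ANT008+IgG mouse 3 Serinc5 was under that of its lane, 23.4.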

How the data were processed

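T cell RNA of 12 mice, 3 in each of 4 groups, was measured on the nCounter Metabolic Pathways panel. The authors deposited whole-number counts of every probe per lane, without background subtraction, scaling or pooling. Groups and mouse numbers were read from the sample titles, and mice of the same number are different animals. The comparison, its members and the gene lists were chosen with earlier results of these data known.

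Lane size came from the 3 of 20 housekeeping genes that exceeded background in every one of the 12 lanes. In the 6 lanes compared, 17 of the 20 exceeded background. Endogenous genes had to exceed background in 3 lanes or more, which left 640. They were tested with the quasi-likelihood test of edgeR 4.0.16 in R 4.3.3, with 4 groups in 1 fit and no covariate, and p-values were adjusted by Benjamini-Hochberg over all 640. Division by a small lane size raises background too, which lifts low genes of ANT008+IgG mice 2 and 3. The text names the 10 genes of smallest p in each direction, up to 4 per list, genes named for T cells in the study, and the scaling genes. Alternatives were other scalings, filters and background, DESeq2 1.42.0, limma 3.58.1 (also voom with sample weights), other lanes in the fit, the replicate number as a block, and each mouse left out. The edgeR test was also run on simulated counts with known large changes in the ANT008+IgG lanes, and its outcome is not reported here. Promoters came from RefSeq (GRCm38.p6). Probe targets came from the panel definition, which names no genome build. Some genes of the panel are not reported here.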

Additional observations from a re-analysis of the deposited data

How the results depend on the processing

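Under most alternatives the counts of genes at an FDR below 0.1 stayed at 0 in both comparisons. The exceptions were limma's voom with sample weights, with 37 higher and 7 lower genes against Scram+IgG, and DESeq2, with 1 higher gene against Scram+aPD-1. Over all tested genes the log2 fold change against Scram+IgG had a median of 0.11, but of -0.66 when the positive control probes set the lane size and of -0.86 with no scaling. The cause was not tested. Leaving out each mouse in turn gave counts of 0 to 0, a median from -0.05 to 0.18, and between 2 and 54 higher genes at an unadjusted p below 0.05. The replicate number as a block gave 0 higher and 0 lower genes, 3 higher ones at an unadjusted p below 0.05 and a median of 0.14. The deviations of same-numbered mice from their group means correlated at 0.781, 0.507 and -0.0914 for mice 1, 2 and 3. ANT008+IgG mouse 1 and Scram+IgG mouse 2 correlated at -0.789, and ANT008+IgG mouse 2 and Scram+IgG mouse 1 at -0.543. Mice 1 and 2 thus varied alike by number in both groups, and mouse 3 did not. Whether the number marks something the mice shared was not tested, and the main fit held no block. Leaving out both lanes marked FLAG was chosen after seeing the data and gave 0 genes. For the 97 named genes, none of which edgeR called, 1740 of 2008 values under other settings kept the sign and the side of the threshold, 253 had the opposite sign, 102 of them under the positive control scaling or no scaling and 76 with 1 mouse left out, and 15 passed the threshold with voom. The sign of 43 of the 97 turned with at least 1 mouse left out. The smallest lanes, those of ANT008+IgG mice 2 and 3, had the highest scaled backgrounds of the 6.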

Other observations

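Some genes outside the rule for named genes were singled out after their values were seen, because their mice did not overlap between ANT008+IgG and Scram+IgG. Irf1, a transcription factor induced by interferons, had scaled counts of 1347, 1301 and 1406 with Scram+IgG and of 1558, 1576 and 1549 with ANT008+IgG, a log2 fold change of 0.21 (SE 0.34). Its spread within each group was small beside that of the T cell genes in the same mice. Map2k1, a kinase of the MAP kinase pathway, was at 317, 373 and 395 against 397, 430 and 479. Oat, an enzyme that links ornithine and glutamate, was at 154, 129 and 154 against 178, 213 and 186, and Nme1, a nucleoside diphosphate kinase, at 48.5, 44.8 and 58.7 against 65.8, 70.6 and 73.8. Cenpa, the histone H3 variant of centromeres, was lower with ANT008+IgG in every mouse, at 407, 352 and 415 against 328, 342 and 297, with a log2 fold change of -0.28 (SE 0.31). The adjusted p of each of these genes in edgeR was 0.999.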
